A study of Homo sapiens with 4 samples.

Results

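Prostate tumour surface antigens are proteins on the outer membrane of prostate cancer cells that serve as targets of antibodies, engineered T cells or radioligands. 9 of the 60880 genes listed in the count table were followed here, chosen by symbol from such targets and matched through their Ensembl identifiers: FOLH1, STEAP1, STEAP2, STEAP3, PSCA, TMEFF2, CD276, CEACAM5 and NECTIN4. RNA-Seq compared LNCaP95 (genotype WT, replicates 1 and 2) with LN95(KO) (genotype UGT2B17 KO, replicates 3 and 4), to ask which mRNAs differ when the enzyme UGT2B17, which inactivates androgens by glucuronidation, is lost. LNCaP95 is a subline of the human prostate cancer line LNCaP that grows without androgen, and LN95(KO) derives from it by CRISPR targeting of UGT2B17. Both lines were kept in medium with charcoal-stripped serum, which is depleted of steroids, without any treatment. Poly(A) RNA was sequenced from 2 libraries of each line. In the labels all 4 libraries carry the cell line name LN95, whereas the series description writes LNCaP for the knockout. How many clones the knockout comprises was not stated, so that an effect of the knockout and a property of the clone cannot be told apart. No source said that the libraries of a line came from separate cultures, so p-values measure only the spread between these libraries, which may be technical.

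The antigens fall into several protein families. FOLH1 encodes PSMA, a membrane carboxypeptidase that releases glutamate from folates and neuropeptides and is the target of PSMA imaging and radioligand therapy, and it is known as a gene that androgen represses. STEAP proteins span the membrane several times and bind heme, and most of them reduce iron and copper. The remaining antigens are a GPI-anchored protein of the Ly6 family (PSCA), a transmembrane protein with follistatin-like and EGF-like domains (TMEFF2), the immune checkpoint ligand B7-H3 (CD276), carcinoembryonic antigen (CEACAM5) and an adhesion molecule of the nectin family (NECTIN4).

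Gene reads numbered 17330338 to 18813193 per library. UGT2B17 (ENSG00000197888.2_2, chr4:69402891-69442131 on hg19, minus strand) had 2788 and 2748 reads in LNCaP95 and 21 and 20 in LN95(KO), giving a log2 change of -7.04 (SE 0.10), in the direction of the labels. All 9 markers of prostate luminal epithelium had reads in every library. The summed level of these 9 markers was 2943 and 2977 CPM (reads scaled to library size, on TMM-scaled library sizes) in LNCaP95 against 3847 and 3709 CPM in LN95(KO), with 3 of the 9 called higher, and its part in the results below was not tested. Of the markers of other cell types, CD3E, CD68, MS4A1, CDH5, DCN, PDGFRA and CHGA had 0 reads in all libraries, and the summed levels in LNCaP95 and LN95(KO) were at most 0.164 and 1.26 CPM for the 3 basal markers and 0.491 and 3.18 CPM for the 3 endothelial markers matched, of which VWF held most reads. The fibroblast markers summed to 30.2 to 35.7 CPM, mostly COL1A1, and the neuroendocrine markers to 6.50 and 6.93 CPM in LNCaP95 against 2.43 and 2.30 CPM in LN95(KO).

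FOLH1, STEAP1 and STEAP2, the antigen mRNAs with the most reads in LNCaP95, fell in LN95(KO), whereas TMEFF2 rose. STEAP3, PSCA, CD276 and NECTIN4 did not pass the call, and CEACAM5 had no read in any library. Calls required an adjusted p under 0.05 in edgeR's quasi-likelihood test together with a fold change over 2. By this rule 4 of the 8 antigens tested were called, against 18% of the 15626 genes tested. 3 antigens were called lower, where 9.13% of all genes were, and 1 was called higher, where 8.86% of all genes were. By the adjusted p alone 5 of the 8 antigens passed, close to the 59.8% of all genes, and the libraries of the groups did not overlap for 7 of the 8, against 79.8% of all genes. The median log2 fold change of the 8 antigens was 0.12, beside -0.01 over all genes tested.

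**Figure D1:**
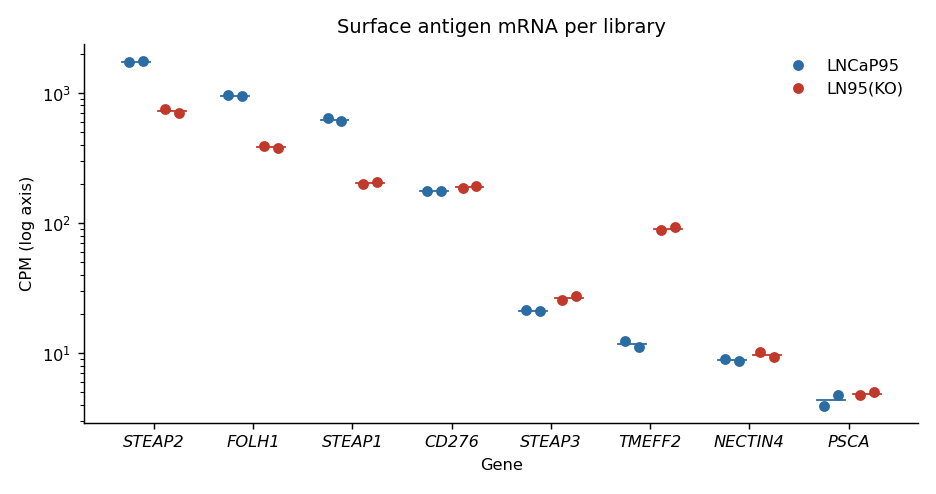
Level of each antigen mRNA in the 4 libraries, in CPM on a log axis. Points are libraries (LNCaP95 in blue, LN95(KO) in red) and horizontal lines are group means. STEAP2, FOLH1 and STEAP1 lie lower in both LN95(KO) libraries, TMEFF2 lies higher, and CEACAM5 is left out because it had 0 reads.

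FOLH1 (ENSG00000086205.17_3, chr11:49166644-49230190, minus strand) had 17727 and 17218 reads in LNCaP95 and 6971 and 6915 reads in LN95(KO). Both LN95(KO) libraries lay far below both LNCaP95 libraries. The level was 950 ± 14.4 CPM (SD, n = 2) in LNCaP95 and 386 ± 10.6 CPM (SD, n = 2) in LN95(KO), giving a log2 change of -1.30 (SE 0.05, 95% interval -1.40 to -1.20, adjusted p = 1.99e-13 in edgeR's quasi-likelihood test), that is 2.46-fold lower. In a bulk sample of this kind, fewer cells that make the mRNA and less mRNA per cell cannot be told apart. FOLH1 has a near-identical copy, FOLH1B, which is annotated as a transcribed pseudogene. Of the windows of 100 bases along the FOLH1 transcripts, 8.72% also occur in another gene, FOLH1B in each case, and of the windows of 50 bases 20.8% do, mostly in FOLH1B. Reads from these windows could be lost or assigned to the copy when counted. FOLH1B itself had 48 and 54 reads in LNCaP95 and 13 and 35 in LN95(KO), giving a log2 change of -1.05 (SE 0.31, adjusted p = 0.00828 in edgeR's quasi-likelihood test). Its call was lost with DESeq2, with unadjusted library totals, with the test against a 2-fold change, and without LNCaP95 replicate 2 or LN95(KO) replicate 3, and it was not among the genes tested at a minimum count of 50. The list of FOLH1 relatives holds 7 genes of M28 family peptidases and transferrin receptors, FOLH1 and its pseudogene copy among them. Of these, 4 were tested and FOLH1 and FOLH1B alone were called, or 50% beside 18% of all genes. That share counts FOLH1 itself and the copy, so it does not describe the other relatives. NAALADL2, a peptidase-like relative, had 1293 and 1290 reads in LNCaP95 and 1774 and 1774 in LN95(KO), giving a log2 change of 0.49 (SE 0.06). TFRC, the transferrin receptor that brings iron into cells, had 2521 and 2464 reads against 1852 and 2229, giving a log2 change of -0.26 (SE 0.06). Neither reached a 2-fold change.

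STEAP1 and STEAP2 lie next to each other on chromosome 7 in the same orientation. From the annotated end of STEAP1 to the annotated start of STEAP2 they are 2.76 kb apart. STEAP1 differs from other STEAP proteins in lacking the domain that binds NADPH, and antibodies and T cell engagers against it have entered clinical trials. STEAP1 (ENSG00000164647.8_2, chr7:89783770-89794143, plus strand) had 11798 and 11091 reads in LNCaP95 and 3518 and 3768 reads in LN95(KO). Its level was 622 ± 23.8 CPM (SD, n = 2) against 203 ± 5.45 CPM (SD, n = 2), giving a log2 change of -1.62 (SE 0.05, 95% interval -1.72 to -1.51, adjusted p = 2.18e-14 in edgeR's quasi-likelihood test), that is 3.07-fold lower. This was the largest fall among the antigens. Of the windows of 100 bases along STEAP1 transcripts, 8.70% also occur in STEAP1B, and of those of 50 bases 22.5% do. STEAP1B is a related gene that had 5 and 7 reads in LNCaP95 and 2 and 3 in LN95(KO) and was not tested.

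STEAP2, which encodes a reductase of iron and copper ions, is at chr7:89796904-89867451 on the plus strand (ENSG00000157214.13_3). It had 31720 and 32083 reads in LNCaP95 and 13342 and 12848 reads in LN95(KO). The level was 1735 ± 23.4 CPM (SD, n = 2) against 729 ± 35.2 CPM (SD, n = 2), giving a log2 change of -1.25 (SE 0.05, 95% interval -1.35 to -1.15, adjusted p = 4.75e-13 in edgeR's quasi-likelihood test), that is 2.38-fold lower. Both neighbours thus fell, but their reads did not keep the same ratio. For every 100 STEAP2 reads there were 37.2 and 34.6 STEAP1 reads in LNCaP95 and 26.4 and 29.3 in LN95(KO), so the groups did not overlap. The difference between the fold changes of STEAP1 and STEAP2 was not tested. For every 100 STEAP2 reads there were 55.9 and 53.7 FOLH1 reads in LNCaP95 and 52.2 and 53.8 in LN95(KO), and here the groups overlapped, with FOLH1 on another chromosome.

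The promoters of STEAP1 and STEAP2 are shown because these neighbouring genes moved together. Each window runs from 250 bases before to 50 bases after a start site in RefSeq (table of GRCh38.p14, placed on GRCh37 by exact match). Capitals mark 4 motifs searched on both strands, namely the GC box GGGCGG, the CCAAT box CCAAT, the TATA box TATAAA and the E-box CACGTG. No capital in the windows printed belongs to more than 1 motif. The STEAP1 window (chr7:89783533-89783832, plus strand) holds none of these letters, and the STEAP2 window (chr7:89840804-89841103, plus strand), the first of 2 in the table and inside the annotated gene, holds 1 GC box. This STEAP2 window lies farther from STEAP1 than the annotated start of STEAP2 does.
STEAP1: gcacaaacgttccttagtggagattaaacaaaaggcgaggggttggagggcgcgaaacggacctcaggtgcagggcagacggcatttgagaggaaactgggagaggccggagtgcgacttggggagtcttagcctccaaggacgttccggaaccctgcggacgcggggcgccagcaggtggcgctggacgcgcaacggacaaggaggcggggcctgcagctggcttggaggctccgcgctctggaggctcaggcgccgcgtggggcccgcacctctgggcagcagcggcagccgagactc
STEAP2: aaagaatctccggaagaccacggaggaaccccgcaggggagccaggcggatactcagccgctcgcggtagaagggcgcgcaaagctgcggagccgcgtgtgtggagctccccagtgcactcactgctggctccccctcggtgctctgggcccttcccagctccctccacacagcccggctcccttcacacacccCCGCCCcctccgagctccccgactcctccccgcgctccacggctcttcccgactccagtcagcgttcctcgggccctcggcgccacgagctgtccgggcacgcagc
Of 35116 promoters in the table, 45.0% hold the GC box, 34.6% the CCAAT box, 11.5% the TATA box and 7.26% the E-box. The GC content was 66.7% for the STEAP1 window and 70.3% for this STEAP2 window, beside a median of 58.7% over all promoters. The other STEAP2 window in the table (chr7:89842884-89843183), not printed, had a GC content of 33.7% and held 2 CCAAT boxes, 1 TATA box and 0 GC boxes. A match is a description of letters only.

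STEAP3, known as the reductase of endosomal iron in red cell precursors, had a difference of the opposite sign. STEAP3 (ENSG00000115107.19_3, chr2:119981407-120023228, plus strand) had 395 and 383 reads in LNCaP95 and 450 and 500 reads in LN95(KO), with no overlap between the groups. The level was 21.2 ± 0.347 CPM (SD, n = 2) against 26.4 ± 1.40 CPM (SD, n = 2), giving a log2 change of 0.32 (SE 0.09, 95% interval 0.14 to 0.50, adjusted p = 0.00366 in edgeR's quasi-likelihood test). At 1.25-fold it stayed under the 2-fold limit, and over 12 alternatives its adjusted p ranged from 0.00104 to 1, with 0.0733 in DESeq2. STEAP3 shares 11.0% of its exon bases with STEAP3-AS1 on the other strand, and strand was not used in counting. STEAP4 had 1 and 0 reads in LNCaP95 and 0 and 2 in LN95(KO). Of the 5 STEAP genes listed, 3 were tested and 2 were called, both lower, beside 9.13% of all genes called lower. These 2 are STEAP1 and STEAP2 themselves, so the share does not describe the other STEAP genes.

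The fall on chromosome 7 was not restricted to STEAP1 and STEAP2. STEAP2-AS1 is an antisense transcript on the minus strand. Its span overlaps both genes without sharing exon bases with them. It had 22 and 23 reads in LNCaP95 and 3 and 8 in LN95(KO). It was called lower, with a log2 change of -1.98 (SE 0.45). Reads of introns of STEAP1 or STEAP2 cannot be told apart from those of this antisense transcript. CFAP69, a gene of sperm and cilia, lies 7.04 kb beyond the end of STEAP2 on the same strand, and its start lies 90.7 kb beyond that of STEAP1. It had 360 and 368 reads against 118 and 131, giving a log2 change of -1.51 (SE 0.11), and was called lower. Farther on, CLDN12, a claudin, had 2193 and 2171 reads against 1401 and 1332 (log2 fold change -0.64, SE 0.06), CDK14, a cyclin-dependent kinase, had 480 and 515 against 316 and 313 (log2 fold change -0.63, SE 0.09), and GTPBP10, a GTPase, had 847 and 794 against 623 and 705 (log2 fold change -0.27, SE 0.07). These 3 lay under the 2-fold limit. Of the protein-coding genes within 1 Mb of STEAP1, 5 were tested besides STEAP1 itself, STEAP2 among them, and all 5 had a negative log2 fold change with a median of -0.64. The median was -0.29 over 10 genes within 2 Mb, -0.12 over 32 genes within 5 Mb and -0.01 over the 584 genes tested on chromosome 7. The counts are given as a description, without a test of the region.

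**Figure D2:**
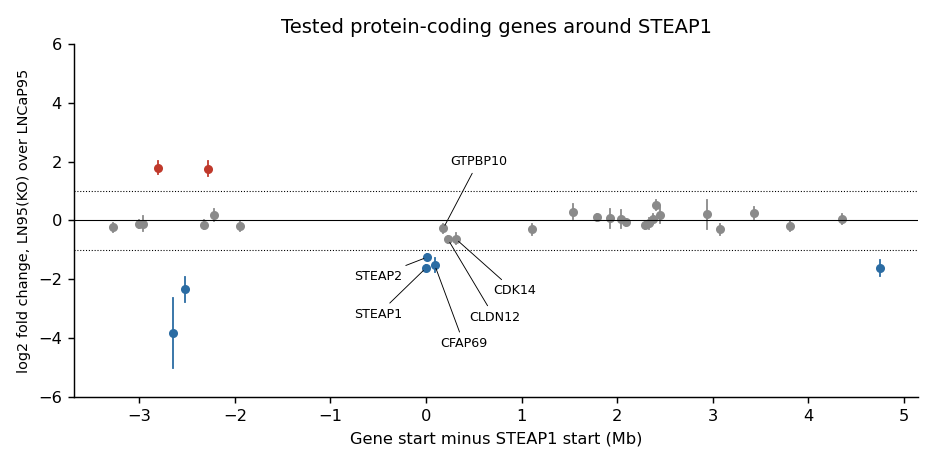
Log2 fold change of LN95(KO) over LNCaP95 for the protein-coding genes tested around STEAP1, against the distance of each gene's start from that of STEAP1 in Mb. Points are genes, vertical lines are 95% intervals and dotted lines mark a 2-fold change. Genes called lower are blue, called higher red and not called grey. All tested genes within 1 Mb of STEAP1 lie below 0, with STEAP1, STEAP2 and CFAP69 past the lower dotted line.

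Around each of the other antigens the tested genes within 1 Mb had log2 fold changes of both signs. The nearest tested gene to FOLH1, UBTFL9, had 14 and 20 reads in LNCaP95 and 6 and 3 in LN95(KO) and was called lower, and no tested protein-coding gene lay within 1 Mb of FOLH1 by its start. Within 1 Mb of TMEFF2 the nearest tested gene, NABP1, had 288 and 316 reads against 596 and 560 (log2 fold change 0.97, SE 0.09), just under the limit. C2orf76, next to STEAP3, had 358 and 350 reads against 345 and 343 (log2 fold change -0.01, SE 0.09). Beside CD276, INSYN1 was called lower on few reads, at 17 and 16 against 10 and 4, while NPTN had 1112 and 1038 against 844 and 876. Beside NECTIN4, ARHGAP30 had 61 and 89 reads against 79 and 104 and KLHDC9 had 464 and 466 against 355 and 341, and neither was called.

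TMEFF2 (ENSG00000144339.11_2, chr2:192813769-193059659, minus strand) encodes tomoregulin, which is known mainly from brain and prostate. It had 228 and 206 reads in LNCaP95 and 1552 and 1696 reads in LN95(KO). The level was 11.8 ± 0.782 CPM (SD, n = 2) against 90.3 ± 3.71 CPM (SD, n = 2), giving a log2 change of 2.94 (SE 0.08, 95% interval 2.77 to 3.10, adjusted p = 2.72e-15 in edgeR's quasi-likelihood test), that is 7.65-fold higher. It was the antigen that rose, and its change was the largest of the 8 tested in either direction. TMEFF2 shares no exon bases with another annotated gene and no window of 50 bases with another transcript. Its relative TMEFF1 had 1 read in all libraries together.

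The TMEFF2 promoter (chr2:193059610-193059909, minus strand, same source and motifs as above) is shown beside those of STEAP1 and STEAP2 because TMEFF2 rose where they fell. In contrast to the STEAP1 window it holds 2 GC boxes, 1 CCAAT box and 1 E-box, and its GC content is 69.3%. Windows of antigens that were not called, not printed, also hold GC boxes, with 3 for STEAP3, 2 for NECTIN4 and 7 and 2 for CD276. The window of CEACAM5, which had no reads, holds 0. Whether these letters bear on the changes was not tested.
TMEFF2: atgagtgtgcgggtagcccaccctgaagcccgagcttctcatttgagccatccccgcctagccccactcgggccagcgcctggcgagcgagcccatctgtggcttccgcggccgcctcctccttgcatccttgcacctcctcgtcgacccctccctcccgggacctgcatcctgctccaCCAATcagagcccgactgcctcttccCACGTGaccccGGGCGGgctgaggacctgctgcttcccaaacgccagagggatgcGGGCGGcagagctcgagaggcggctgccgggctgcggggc
None of the 3 windows printed holds the TATA box as spelled here, unlike the other STEAP2 window, which says only that these letters are not in the windows.

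CD276 (ENSG00000103855.17_2, chr15:73976307-74006855, plus strand) had 3245 and 3252 reads in LNCaP95 and 3295 and 3536 reads in LN95(KO). The level was 177 ± 1.23 CPM (SD, n = 2) against 190.0 ± 5.37 CPM (SD, n = 2). The log2 change was 0.10 (SE 0.05, 95% interval 0.001 to 0.21, adjusted p = 0.0752 in edgeR's quasi-likelihood test). The libraries of the groups did not overlap in CPM, but the interval ends well below a 2-fold change. Over 12 alternatives its adjusted p ranged from 0.00859, with unadjusted library totals, to 1. Among the 10 genes of the B7 family, which present signals to T cells, 6 were tested and 0 were called by edgeR or DESeq2. In edgeR 18% of all genes were called. CD276 and ICOSLG were the 2 members at an unadjusted p under 0.05 in edgeR. ICOSLG, the ligand of ICOS, was the member with an adjusted p under 0.05 (adjusted p = 0.0139 in edgeR's quasi-likelihood test) and is named after its values were seen, with 79 and 56 reads in LNCaP95 and 94 and 102 in LN95(KO).

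NECTIN4 (ENSG00000143217.8_3, chr1:161040788-161059348, minus strand), the target of an antibody-drug conjugate in bladder cancer, had 166 and 160 reads in LNCaP95 and 181 and 169 reads in LN95(KO). The level was 8.86 ± 0.183 CPM (SD, n = 2) against 9.74 ± 0.683 CPM (SD, n = 2), giving a log2 change of 0.14 (SE 0.13, 95% interval -0.13 to 0.40, adjusted p = 0.371 in edgeR's quasi-likelihood test). At this depth no difference was detectable, and the interval leaves out a change of 2-fold in either direction. Of 9 nectins and nectin-like molecules, which join neighbouring cells, 8 were tested, with 1 called higher and 2 called lower, or 37.5% of those tested beside 18% of all genes. NECTIN3 had 985 and 982 reads in LNCaP95 and 411 and 442 in LN95(KO), giving a log2 change of -1.17 (SE 0.07, adjusted p = 2.17e-10 in edgeR's quasi-likelihood test). CADM1, a nectin-like adhesion molecule known as a tumour suppressor, had 293 and 294 reads against 1 and 0, a ratio of 574 with a counting interval of 103 to 22704. CADM2, a relative known from brain, had 0 and 0 reads against 17 and 19 and was at least 12.3-fold higher in LN95(KO), taking 3 counts over the LNCaP95 group as the floor. The receptors of nectins on immune cells had at most 4 reads in any library, and AFDN, the adaptor that ties nectins to actin, had 1295 and 1359 reads against 1513 and 1489 (log2 fold change 0.21, SE 0.06) and was called by neither edgeR nor DESeq2, with an unadjusted p under 0.05 in edgeR.

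PSCA (ENSG00000167653.4_4, chr8:143751726-143764143, plus strand) had 73 and 87 reads in LNCaP95 and 84 and 91 reads in LN95(KO), and the groups overlapped. The level was 4.35 ± 0.562 CPM (SD, n = 2) against 4.87 ± 0.170 CPM (SD, n = 2), giving a log2 change of 0.16 (SE 0.17, 95% interval -0.20 to 0.53, adjusted p = 0.438 in edgeR's quasi-likelihood test). No difference was detectable at this depth. Exons of JRK on the other strand cover 20.8% of PSCA exon bases, and JRK had 604 and 576 reads in LNCaP95 and 419 and 390 in LN95(KO), so reads in the shared bases were left out as ambiguous or cannot be assigned by strand. Of 19 genes in the Ly6 and uPAR family, 8 were tested and 2 were called, or 25% beside 18% of all genes. LY6E, an interferon-inducible member, had 1143 and 1070 reads against 2470 and 2821, giving a log2 change of 1.29 (SE 0.06, adjusted p = 8.48e-12 in edgeR's quasi-likelihood test). CD177, known from neutrophils, had 29 and 28 reads against 3 and 6, giving a log2 change of -2.60 (SE 0.43, adjusted p = 5.02e-05 in edgeR's quasi-likelihood test).

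CEACAM5 (ENSG00000105388.15_3, chr19:42212504-42234353, plus strand) had 0 reads in each of the 4 libraries and was not tested. A count of 0 allows up to 3 counts, or 0.163 to 0.169 CPM in these libraries, a limit that covers counting error only. Of the 12 CEACAM genes listed, 9 had 0 reads in all libraries. CEACAM1, the member found on most epithelia, had 4 and 3 reads in LNCaP95 and 1 and 2 in LN95(KO). CEACAM19 was the member tested, with 14 and 21 reads against 18 and 14, and was called by neither edgeR nor DESeq2, with an unadjusted p over 0.05.

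**Figure D3:**
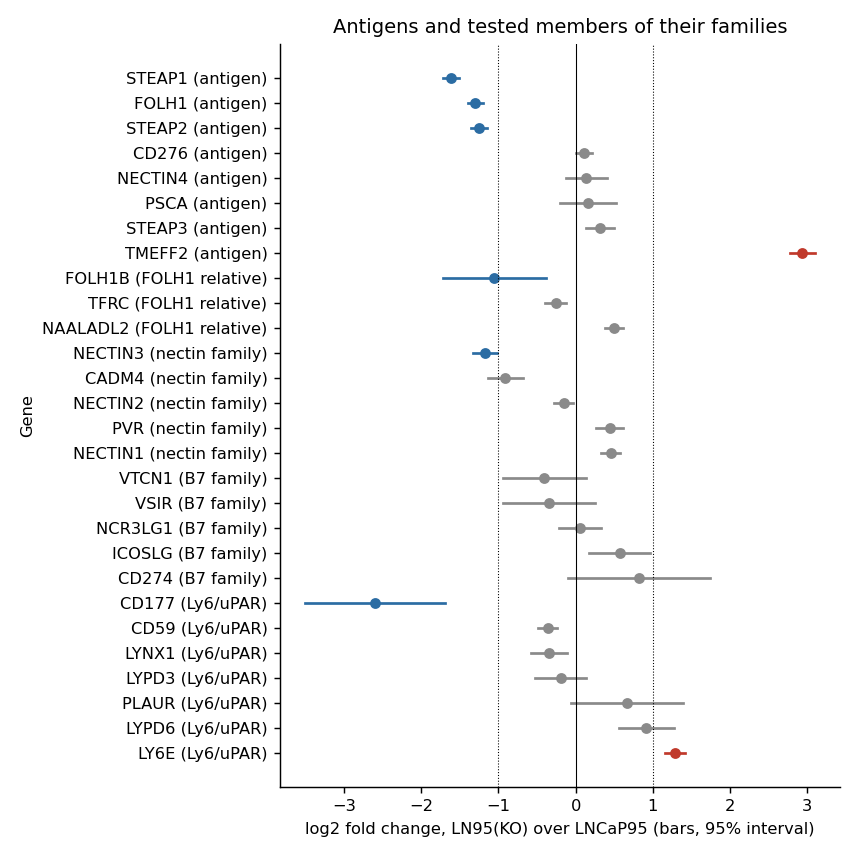
Log2 fold change of LN95(KO) over LNCaP95 for the antigens and the tested members of their families, with bars for 95% intervals and dotted lines at a 2-fold change. Blue marks genes called lower, red genes called higher and grey genes not called. Genes with 3 or fewer reads over a group, CADM1 and CADM2 among them, are left out. FOLH1, STEAP1 and STEAP2 lie together below -1, and TMEFF2 stands alone near 3.

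Levels of different antigens were compared per length, as CPM per kilobase of annotated exon, a scale that depends on which exons the annotation joins. In LNCaP95 the order was STEAP1 (414 and 392.2 in the 2 libraries), STEAP2 (197 and 201), FOLH1 (180.0 and 176), CD276 (32.1 and 32.4), STEAP3 (4.69 and 4.58), NECTIN4 (2.60 and 2.53), PSCA (2.24 and 2.69), TMEFF2 (2.11 and 1.92) and CEACAM5 (0). Only NECTIN4 and PSCA overlapped. In LN95(KO) the order was STEAP1 (129 and 134), STEAP2 (86.4 and 80.7), FOLH1 (73.8 and 71.0), CD276 (34.0 and 35.3), TMEFF2 (14.97 and 15.9), STEAP3 (5.57 and 6.01), NECTIN4 (2.96 and 2.68), PSCA (2.69 and 2.83) and CEACAM5 (0), and NECTIN4 and PSCA again overlapped. TMEFF2 thus passed from below PSCA to above STEAP3, while the 4 antigens with the most mRNA per length kept their order. Among 19954 protein-coding genes ranked by this measure, STEAP1 went from rank 35 to 196, STEAP2 from 92 to 354, FOLH1 from 110 to 440 and TMEFF2 from 8623 to 2576. CD276 stayed near rank 1100, at 1110 in LNCaP95 and 1075 in LN95(KO). The 9 antigens together took 0.347% and 0.344% of gene reads in LNCaP95 and 0.1696% and 0.164% in LN95(KO). FOLH1, STEAP1 and STEAP2 made up 93.7% and 93.7% of these antigen reads in LNCaP95 and 81.1% and 79.7% in LN95(KO).

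Other surface proteins used as targets of therapy or imaging also changed in both directions. Of 37 listed, 36 were matched, 24 were tested, 9 were called higher and 2 lower, or 45.8% of those tested beside the 18% of all genes, and their median log2 fold change was 0.47. Of the antigens tested, 50% were called, with a median of 0.12, and the lists were not tested against each other. KLK2, a secreted and membrane-bound kallikrein of the prostate, had 236 and 225 reads in LNCaP95 and 6946 and 6638 in LN95(KO), giving a log2 change of 4.91 (SE 0.07, adjusted p = 8.55e-19 in edgeR's quasi-likelihood test). SLC45A3, the transporter known as prostein, had 219 and 235 reads against 1706 and 1585, giving a log2 change of 2.89 (SE 0.08, adjusted p = 6.19e-15 in edgeR's quasi-likelihood test). EGFR, the receptor of epidermal growth factor, had 553 and 556 reads against 2028 and 1823, giving a log2 change of 1.83 (SE 0.07, adjusted p = 6.94e-13 in edgeR's quasi-likelihood test). These rises spanned prostate-restricted proteins and a widely expressed growth factor receptor. Of the other 6 that rose, chosen for mention after their values were seen, TMPRSS2, a surface protease, had 511 and 556 reads against 4434 and 3701, and GRPR, the receptor of bombesin-like peptides, had 1 and 2 reads against 26 and 39, a ratio of 22.2 with a counting interval of 7.26 to 110. MSLN, GPC3, L1CAM and ROR1 were the remaining 4. ALCAM, an adhesion molecule of activated leukocytes and epithelia, had 2719 and 2684 reads against 633 and 543, giving a log2 change of -2.17 (SE 0.07, adjusted p = 5.23e-14 in edgeR's quasi-likelihood test) and a larger fall than that of any antigen, though that difference was not tested. MET, the receptor of hepatocyte growth factor, had 18 and 22 reads against 6 and 10, giving a log2 change of -1.28 (SE 0.41, adjusted p = 0.0129 in edgeR's quasi-likelihood test). SLC44A4, a choline transporter-like protein, had 0 reads in all 4 libraries. With a minimum count of 50, or in the test against a 2-fold change, 7 of this list were called.

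**Figure D4:**
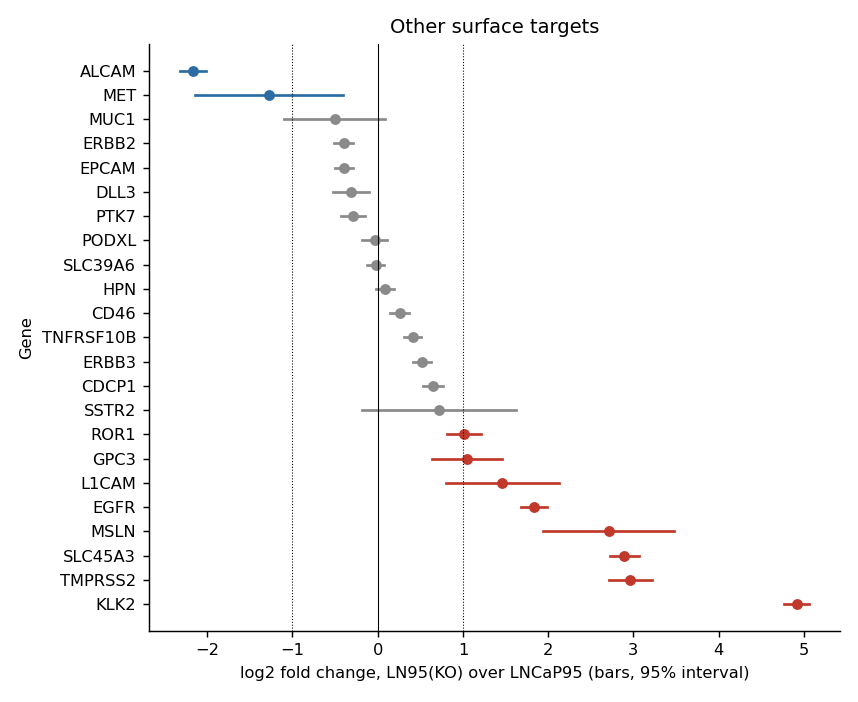
Log2 fold change of LN95(KO) over LNCaP95 for the other surface targets that were tested, with bars for 95% intervals and dotted lines at a 2-fold change. Blue marks genes called lower, red genes called higher and grey genes not called, and GRPR is left out because it had 3 reads over the LNCaP95 group. KLK2 lies farthest to the right, and ALCAM and MET are the called genes on the left.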

How the data were processed

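Raw counts of reads per gene were deposited for 4 libraries. Per the labels and the study's methods, the authors used HISAT2 (version 2.1.0) for alignment to hg19 and htseq-count (version 0.11.2) for counting on GENCODE release 29. The names of the deposited count tables state that strand was not used. htseq-count leaves out reads that align more than once or fall on several genes. Of 60880 identifiers, 59859 matched a symbol, and gene models were those of GENCODE release 44 on GRCh37. The 5 summary lines of each table entered neither library sizes nor tests, and gene reads made up 72.5% to 76.2% of all entries. CD24 and PECAM1 were not analysed here, and some genes under the rule for named genes are not reported here.

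Counts were tested with edgeR's quasi-likelihood test (version 4.0.16 in R 4.3.3), using TMM factors, robust estimation and filterByExpr (minimum count 10, minimum total count 15), adjusted by Benjamini-Hochberg over 15626 genes. The fit was tested on simulated data. Calls required an adjusted p under 0.05 and a fold change over 2, the thresholds of the study, which used DESeq2. Fold changes are LN95(KO) over LNCaP95, and an SE is the log2 fold change divided by the square root of F. Ratios with 1 to 3 counts in a group have exact 95% counting intervals, which cover counting error only. With 2 libraries against 2, no permutation p can go below 0.333, so none was used. The alternatives were DESeq2 (version 1.42.0), other scalings and filters, other fold criteria and leaving out each library.

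The antigens and gene lists were chosen with earlier results of these data known. Named genes were the antigens, UGT2B17, called genes of each related list (where more than 6 were called, the 3 higher and 3 lower with the smallest adjusted p), the 3 nearest profiles of each called antigen, and overlapping or adjacent genes.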

Additional observations from a re-analysis of the deposited data

Results flagged for a closer look

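Reads that did not align, which lie outside the gene counts, took 3.85% and 3.96% of the entries of the LNCaP95 libraries, against 8.05% and 7.71% in LN95(KO). They are pointed out because both LN95(KO) libraries exceeded both LNCaP95 libraries in a quantity that no comparison above used. Their part in the lower FOLH1, STEAP1 and STEAP2 counts was not tested.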

How the results depend on the processing

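The 4 called antigens numbered 4 under every alternative but that without a fold criterion, where STEAP3 made 5, and leaving out each library in turn gave 4 in each case. The log2 fold change ranged over all alternatives from -1.34 to -1.24 for FOLH1, -1.66 to -1.56 for STEAP1, -1.30 to -1.20 for STEAP2 and 2.87 to 3.005 for TMEFF2. No value changed sign. Over all genes, the 2811 calls became 1754 with a minimum count of 50, 1687 in the test against a 2-fold change and 9349 without a fold criterion, and 2539 to 2777 when each library was left out. UGT2B17 stayed between -7.09 and -6.98. Scaling moved the median of all genes by less than 0.1 on the log2 scale. Where a line was left with 1 library, that library was assumed to vary like the others. No paired analysis was possible because replicates 1 and 2 are LNCaP95 and replicates 3 and 4 LN95(KO). PSCA and NECTIN4, with 73 to 181 reads a library, are the tested antigens for which depth most limits the difference that could be seen.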

Other observations

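Of 25 genes that assemble and attach the GPI anchor, which holds PSCA in the membrane, 24 were tested and 0 were called by edgeR or DESeq2, although 18 of the 24 had a p under 0.05 in edgeR, adjusted or not, beside 59.8% of all genes by the adjusted p. Their median log2 fold change was -0.13, and 1 was called without LN95(KO) replicate 3. Of 13 genes of folate handling, the substrate pathway of PSMA, 11 were tested and 2 were called, both higher, or 18.2% beside 18% of all genes. TYMS, which makes thymidylate, had 78 and 71 reads in LNCaP95 and 312 and 367 in LN95(KO), giving a log2 change of 2.22 (SE 0.13, adjusted p = 1.72e-10 in edgeR's quasi-likelihood test). The list had 1 call in the test against a 2-fold change and without LN95(KO) replicate 4. Of 13 genes of iron and copper uptake and storage, 10 were tested and 1 was called, or 10% beside 18% of all genes. ATOX1, a copper chaperone, was the gene called higher, with 757 and 742 reads against 1405 and 1641 (log2 fold change 1.05, SE 0.07). That call was lost in the test against a 2-fold change and without LN95(KO) replicate 4.

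The protein-coding genes nearest to TMEFF2 in log2 CPM over the 4 libraries were KIF2C, a mitotic kinesin, SLC45A3, and CDCA5, which protects sister chromatid cohesion. KIF2C, the nearest at a distance of 0.10, had 231 and 203 reads in LNCaP95 and 1481 and 1784 in LN95(KO). LDOC1, CAMK2N1 and MAGED2 were nearest to STEAP1, and all 3 were called lower. CAMK2N1, an inhibitor of a calcium-dependent kinase, had 14989 and 14254 reads against 3533 and 3807. ASPH, RTN3 and MARCKSL1 were nearest to FOLH1, and ASPH was called lower, with 20166 and 19762 reads against 7980 and 9051. PHGDH, RNF187 and CCNI were nearest to STEAP2, at distances from 0.58 to 0.81, and none of them was called. The distances describe likeness over 4 libraries and carry no test. They use the same counts as the calls, so the call of a near gene is no separate result.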
